A study of Saccharomyces cerevisiae with 22 samples.

Results

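The first 5 min of a mild heat shock were described from 2 of the 22 arrays of a temperature shift time course in the budding yeast Saccharomyces cerevisiae, the 2 arrays labelled as 5 min after the shift from 30 to 37 °C. All 5311 named genes on these arrays were considered. All cells were wild-type BY4742, a haploid laboratory strain of mating type alpha, grown in synthetic complete medium with glucose. Heat shocked cells were grown at 30 °C, centrifuged, re-suspended in medium at 37 °C and harvested after 5, 15, 30, 45 or 60 min. For the reverse shift, called cold shock, cells grown at 37 °C were handled in the same way, put into medium at 30 °C and harvested after 0, 5, 15, 30, 45 or 60 min. RNA of each sample was hybridised in 2 colours together with a common reference, RNA of untreated BY4742 cells from 1 large culture that was grown by a separate plate reader protocol.

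Each time point had 2 arrays with the dyes exchanged. Heat shocked RNA carried Cy3 on array a and Cy5 on array b. In the design text of the submitters the arrays of a time point are separate cultures, whereas the methods of the study describe biological replicates that were each dye-swapped, so that the p-values below may measure technical spread alone. Values are log2 ratios of heat shocked sample over common reference, given as mean ± SE over n = 2 arrays, with the SE from a limma model fitted to all 22 arrays. A gene was called higher or lower, and is said to have risen or fallen, at a Benjamini-Hochberg adjusted p below 0.05 together with a change of more than 1.7-fold. The untreated heat shock culture at time 0 was not analysed here. The reference therefore stands in as a single control sample whose own spread is left out. The effects of temperature and of centrifuging and re-suspending cells cannot be told apart in the values at 5 min. Nor can these be told apart from differences due to the separate culture and growth protocol of the reference. Each array was centred on its genes, so that a change in total mRNA is not seen.

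In yeast, a rise in temperature unfolds proteins and acts mainly through a pair of transcription systems. Hsf1 drives the genes of molecular chaperones, and the related factors Msn2 and Msn4, which protein kinase A holds back during fast growth, drive a broad set of general stress genes for carbohydrate reserves, antioxidants and membrane protection. Growing cells at the same time spend much of their transcription on making ribosomes, through RNA polymerase I, the ribosomal protein genes and the large set of assembly factors that process ribosomal RNA in the nucleolus.

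After 5 min at 37 °C, 365 genes had risen above the reference and 319 had fallen below it, which is 6.87% and 6.01% of the 5311 genes tested and 12.9% in either direction. The fold threshold set these counts, since 4240 genes passed the adjusted p alone. All 684 called genes had the same sign on both arrays, and 77 rose but 5 fell by more than 4-fold. The median change of called genes was 2.35-fold among those that rose and 2.12-fold among those that fell. Just inside the threshold lay DAK1 at 0.767 and NAR1 at -0.767, and just outside it GAC1 at 0.764 and AAT1 at -0.765. No called gene was at or below background, and 3 had a signal above 32768, where a scanner may saturate.

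Arrays a and b correlated across the 5311 genes at r = 0.975, with an SD of 0.14 for the difference between them. In 8 of the 684 called genes the arrays differed by more than 0.5 on the log2 scale. HSP82, which encodes a cytosolic Hsp90 chaperone, measured 0.62 on array a and 1.75 on array b. UBI4, the polyubiquitin gene, measured 0.61 and 1.66. RPS19A, a ribosomal protein gene, measured -1.28 and -0.30. These 3 genes, and YGP1 at 1.04 and 1.69, were printed in the same one of 48 print blocks, the block with the widest spread between arrays (SD 0.24 over 112 genes). The part of that block in their values was not tested, and the levels of these genes are less certain than those of the other genes named here. These genes other than HSP82 and UBI4, and the genes at the edge of the threshold, were chosen after their values were seen. The labels state the dyes. Among all other arrays of the same dye, the lowest correlation was r = -0.37 for array a, with 15 min of cold shock. For array b it was r = -0.41, with 45 min of cold shock.

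**Figure D1:**
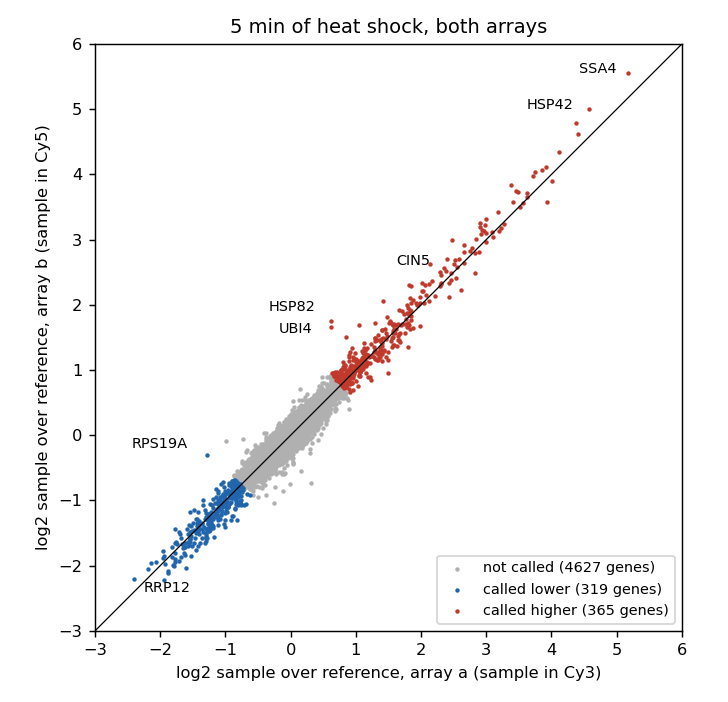
Log2 sample over reference at 5 min of heat shock on array a (x axis) and array b (y axis) for 5311 genes, with genes called higher in red, lower in blue and not called in grey, and a line of equal values. Called genes follow the line, with SSA4 at the top (5.17 and 5.55) and RRP12 at the bottom (-2.40 and -2.20), whereas HSP82 and UBI4 lie far above it.

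The mating type genes showed the marks of the strain, and the disrupted marker genes did so in part. The 4 genes expressed only in mating type alpha had highest signals between 3174 and 17160 arbitrary units on the 5 min arrays, while the 7 genes of mating type a stayed between 66.6 and 168.7. The 4 marker genes disrupted in BY4742 (HIS3, LEU2, LYS2 and URA3) stayed between 58.2 and 354.3. Of these, HIS3 was not dim, at 351.5 for the sample on array b, where the median gene spot measured 449.8 in the same dye. HIS3 and LYS2 were above background in both channels of both arrays, and LEU2 and URA3 were not. None of these 15 genes was called at 5 min.

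The 3 largest rises were those of chaperone genes. SSA4, the heat-inducible cytosolic Hsp70, led all genes with 5.17 on array a and 5.55 on array b, a mean of 5.36 ± 0.09 or 41.0-fold. Its signal reached 36074, above the level at which a scanner may saturate, so that its fold change and its later values may be compressed. HSP42 and HSP26, small heat shock proteins that hold unfolded proteins and sort them into aggregates, had means of 4.79 ± 0.07 and 4.59 ± 0.06, or 27.6-fold and 24.0-fold. The disaggregase HSP104 measured 4.01 and 3.91, and its mitochondrial relative HSP78 3.85 and 4.07, both 15.6-fold. BTN2, which helps to collect misfolded proteins at one place in the cell, measured 3.71 and 3.97. Arrays a and b of each of these genes lay far closer to each other than to 0, and the adjusted p was at most 1.2e-10 for each of the 30 genes with the largest rises and falls at 5 min.

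Of 29 measured chaperone genes in a list of Hsf1 targets, 23 rose and none fell, with a median of 1.54, against a median of -0.00 and 6.87% higher over all genes. The cochaperones SIS1 (2.73), STI1 (2.46), AHA1 (2.19) and FES1 (2.17) rose, as did constitutive Hsp70 and Hsp90 genes. SSA1 rose by 1.39 ± 0.10 and HSC82 by 1.20 ± 0.05, with a signal above 32768 for SSA1, and oligonucleotides for such near-identical gene pairs may bind both transcripts. The mitochondrial matrix chaperones HSP60 (1.43), SSC1 (1.07) and HSP10 (1.01) and their cochaperone MDJ1 (2.11) rose as well. The 6 members that were not called were SSE1 (0.66), CDC37 (0.63), APJ1 (0.44), SBA1 (0.38), SSA3 (0.35) and MGE1 (-0.11). In the lumen of the endoplasmic reticulum 2 of 15 folding genes rose (13.3%, against 6.87% of all genes) and none fell. The 2 were the Hsp70 KAR2 (1.92 and 2.03) and the oxidase ERO1 (1.71 and 1.90).

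Proteasome genes and ubiquitin genes differed in their calls. None of 32 proteasome subunit genes was called in either direction, although 31 of 32 lay above 0, with a median of 0.30 and a highest value of 0.64. RPN4, the transcription factor of the proteasome genes, rose by 0.79 ± 0.04 (0.70 and 0.89), but fell short of the threshold without array b, at 0.74. Of 18 ubiquitin pathway genes 5 rose (27.8%, against 6.87% of all genes), UBC8 (1.30), UBI4 (1.14), the unfoldase CDC48 (0.89), UBC4 (0.84) and UBP15 (0.80), with UBI4 and CDC48 uneven between arrays. CDC48 measured 0.78 and 1.00 and was not called without array b, at 0.65, or with a single loess curve per array, at 0.70. Without array b 2 of the 18 genes were called.

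**Figure D2:**
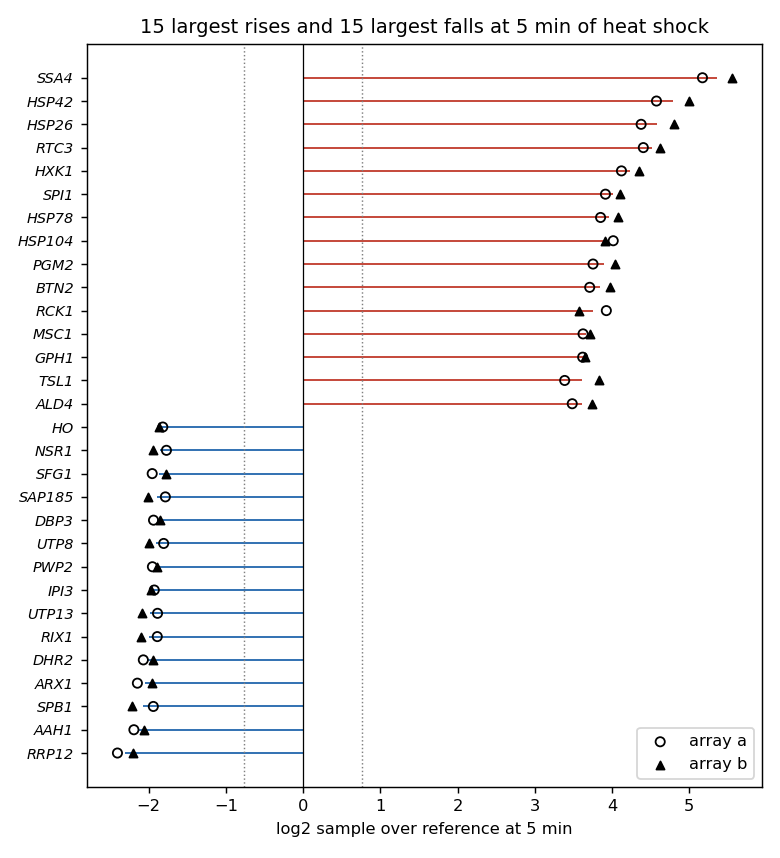
Log2 sample over reference on array a (circles) and array b (triangles) at 5 min for the 15 largest rises and the 15 largest falls, with a line from 0 to their mean and dotted lines at 1.7-fold. The rises reach from 3.61 to 5.36 and the falls from -1.84 to -2.30, and for every gene shown both arrays lie well beyond the dotted line.

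Nearly all genes of the general stress list rose, and the members of this list were chosen with earlier results of these data known. Of 34 genes in this list 33 rose (97.1%, against 6.87% of all genes) and none fell, with a median of 3.06. The remaining one, GAC1, lay at 0.76 just short of the fold threshold. The catalase gene CTT1 measured 3.46 on array a and 3.74 on array b, a mean of 3.60 ± 0.09. HSP12, a membrane-stabilising protein, measured 3.52 and 3.50. Among genes with less well known roles, RTC3 (4.40 and 4.62), the cell wall protein gene SPI1 (3.91 and 4.11) and MSC1 (3.62 and 3.71) were among the 15 largest rises. Also among these were RCK1, a protein kinase linked to oxidative stress, at 3.93 and 3.57, and ALD4, a mitochondrial aldehyde dehydrogenase, at 3.48 and 3.73.

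Genes for storage carbohydrates were higher for both synthesis and breakdown. Of 20 trehalose and glycogen genes 15 rose (75%, against 6.87% of all genes) and none fell, with a median of 1.83. PGM2, which supplies the glucose phosphate both pathways draw on, measured 3.75 and 4.04. The trehalose synthase subunits TSL1 (3.61), TPS2 (3.10), TPS1 (2.55) and TPS3 (1.58), the glycogen synthases GSY1 (3.50) and GSY2 (3.00) and the branching enzyme GLC3 (2.93) rose. So did the glycogen phosphorylase GPH1 (3.63), the debranching enzyme GDB1 (1.80) and the trehalases NTH1 (1.86), NTH2 (1.80) and ATH1 (1.46). The lists overlap, and TPS1, TPS2, TSL1, NTH1, GSY2, GPH1, GLC3, PGM2 and GAC1 are counted in the general stress list as well. That list also shares HXK1 and GLK1 with glycolysis, CTT1 with the redox genes and CYC7 with the respiratory genes. It shares XBP1 with the transcription factors and YAK1 with the Ras and protein kinase A pathway.

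Genes of sugar uptake and phosphorylation rose in part. Of 21 glycolysis genes 3 rose (14.3%, against 6.87% of all genes) and none fell. The 3 were the hexokinase HXK1 (4.12 and 4.34), the glucokinase GLK1 (2.90 and 3.26) and the alternative pyruvate kinase PYK2 (1.59 and 1.56). The genes of the main glycolytic enzymes stayed between -0.20 and 0.65, and the median of the list, 0.36, was -0.05 without a within-array curve. Of 16 hexose transport and sensing genes 5 rose (31.2%) and none fell. The 5 were HXT6 (2.14 and 2.62), HXT2 (1.79 and 1.87), HXT5 (1.58 and 1.68), HXT4 (0.96) and MTH1 (1.58 and 1.71), a repressor of hexose transporter genes. The signal of HXT6, which has a near-identical neighbour in HXT7, was above 32768. Of 49 respiratory and citrate cycle genes 15 rose (30.6%) and 1 fell (2.04%, against 6.01% of all genes). Isoforms within this list differed. CYC7, the cytochrome c isoform favoured at low oxygen, measured 3.10 and 3.04, while the main isoform CYC1 measured -0.90 and -0.94, and COX5B, also a low oxygen isoform, measured 1.59 and 1.63, while its partner COX5A lay at 0.16 and was not called.

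Antioxidant genes rose in part. Of 27 redox genes 5 rose (18.5%, against 6.87% of all genes) and none fell. The 5 were CTT1, the glutaredoxins GRX2 (1.13) and GRX1 (1.10), the peroxiredoxin TSA2 (1.03) and the cytochrome c peroxidase CCP1 (0.86). The thioredoxin system genes TRX1 (-0.22), TRX2 (0.24) and TRR1 (0.33) were not called. Of 35 cell wall genes 3 rose (8.57%, near the 6.87% of all genes), CWP1 (2.12), SED1 (1.39) and YPS1 (0.81), and the glucanase EXG1 fell (-0.85).

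The genes of the heat shock regulators were called in part. HSF1 lay at 0.41 ± 0.04 (0.39 and 0.43) and MSN2 at 0.56 ± 0.04 (0.48 and 0.64), both below the fold threshold, while MSN4 rose by 1.23 ± 0.03 (1.27 and 1.19). Of 31 transcription factor genes 8 rose (25.8%, against 6.87% of all genes) and 2 fell (6.45%, near the 6.01% of all genes). The largest rises were those of USV1, a stress-induced zinc finger factor, at 2.42 and 2.33, CIN5, a bZIP factor of salt and drug tolerance, at 1.81 and 2.31, and XBP1, a repressor of cyclin genes, at 1.99 and 1.67. GIS1 (1.28), NRG1 (1.09), MIG1 (0.90) and RPN4 made up the rest. The 2 that fell act on ribosome production. TOD6, a repressor of ribosome assembly genes, measured -1.68 and -1.57, and IFH1, the coactivator of ribosomal protein genes, -0.78 and -0.77, which other normalisations and the fit without array a placed just short of the threshold. SFP1 (-0.04), FHL1 (-0.34) and RAP1 (-0.49) were not called. In the Ras and protein kinase A pathway 4 of 15 genes rose (26.7%) and none fell. They were IRA2, which switches Ras off, at 1.51 and 1.72, YAK1, a kinase that opposes growth, at 1.57 and 1.57, the catalytic subunit TPK2 at 1.38 and 1.30, and RAS2 (0.90). With global loess, or with no curve within arrays, 7 of the 15 were called higher.

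**Figure D3:**
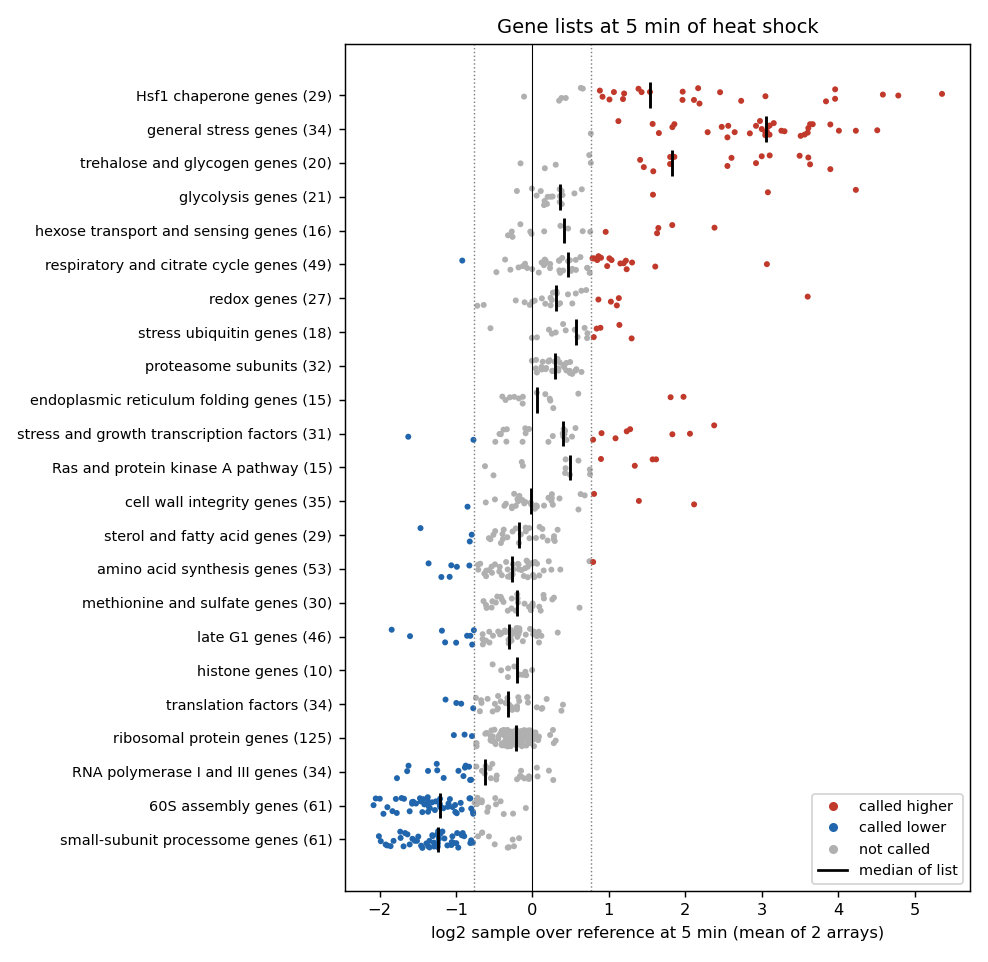
Log2 sample over reference at 5 min (x axis, mean of 2 arrays) for the measured members of 23 gene lists (y axis, number of genes in brackets), coloured by call, with the median of each list as a black bar and dotted lines at 1.7-fold. Some genes belong to several lists. The general stress list has its median at 3.06 and the chaperone list at 1.54, proteasome subunits and ribosomal protein genes stay between the dotted lines with few exceptions, and the 2 ribosome assembly lists lie at -1.24 and -1.21.

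Most of the largest falls were those of genes for ribosome assembly. RRP12, which is needed for export of both ribosomal subunits, led with -2.40 on array a and -2.20 on array b, a mean of -2.30 ± 0.05 or 4.93-fold. SPB1, a methyltransferase of the large subunit, measured -1.94 and -2.22, and ARX1, an export factor of the same subunit, -2.15 and -1.95. DHR2, a helicase of small-subunit assembly, measured -2.07 and -1.95. Arrays a and b of these genes differed by less than 0.3 on the log2 scale and did not come near 0. Of the 15 largest falls 10 belonged to the 2 assembly lists. IPI3, a factor of large-subunit assembly, measured -1.93 and -1.97. The others were AAH1, adenine deaminase (-2.19 and -2.06), SAP185, a phosphatase partner (-1.78 and -2.01), SFG1, a factor of pseudohyphal growth (-1.96 and -1.78), HO, the mating type switching endonuclease (-1.82 and -1.87), and RRP12, which is outside the lists.

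Of 61 genes of the small-subunit processome, the particle that assembles on nascent ribosomal RNA, 51 fell and none rose, with a median of -1.24. Of 61 genes for assembly of the 60S subunit 47 fell and none rose, with a median of -1.21. The background of falls was 6.01%. All 122 genes lay below 0. RNA polymerase I and III genes showed 14 falls and no rise among 34, with a median of -0.62. The called genes were polymerase subunits and RRN3, an initiation factor of polymerase I (-1.16). RPA12 measured -1.83 and -1.72, RPA43 -1.62 and -1.66 and RPA49 -1.56 and -1.68, and the general factors TFC3 (0.27), TFC7 (0.22), BRF1 (-0.16) and RRN5 (-0.20) were not called. The median of all genes, which was -0.00 as centred here, moved to -0.11 when arrays were scaled on external control spots, and the directions given here for chaperone, general stress and assembly genes were the same with that shift.

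Few genes for the proteins of the ribosome were called at 5 min. Of 125 ribosomal protein genes 3 fell (2.4%, against 6.01% of all genes) and none rose, with a median of -0.21. RPL22B measured -0.97 and -1.09, RPS27A -0.88 and -0.90, and RPS19A differed between arrays as given above. The median of the list was -0.57 with 12 falls when no curve was fitted within arrays and -0.42 on the scale of external control spots. Of the spread among these bright genes 49.0% went with the print block, and 36.3% with a single loess curve per array. These 125 genes lay in 44 blocks, and so few genes per block give a sizeable share by grouping alone. The part of the print block was not tested. Of 34 translation factors 4 fell (11.8%), NIP1 (-1.14), GCD14 (-0.996), TIF4631 (-0.93) and SUP45 (-0.78). Of 28 genes for mRNA decay EDC2 rose (1.39 and 1.37) and RRP6, a subunit of the nuclear exosome, fell (-1.21 and -1.38). Each is 3.57% of that list, below the shares of all genes.

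Among the cell cycle lists, calls at 5 min were found in late G1. Of 46 late G1 genes 9 fell (19.6%, against 6.01% of all genes) and none rose, with a median of -0.30. The G1 cyclin CLN2 measured -1.23 and -1.05, the ribonucleotide reductase RNR1 -1.51 and -1.70 and the replication clamp POL30 -1.09 and -1.28. CLN1 lay at -0.20, the upstream cyclin CLN3 at 0.33 and the inhibitor SIC1 at 0.18, and none of these was called. None of 10 histone genes, with a median of -0.20, and none of 20 G2/M genes, with a median of -0.00, was called. In such cultures fewer cells of a phase and less RNA per cell cannot be told apart.

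Biosynthetic genes were called in small numbers, against 6.01% of all genes that fell. Of 53 amino acid synthesis genes 6 fell (11.3%), led by ILV5 (-1.41 and -1.31), LEU9 (-1.13 and -1.25) and LYS4 (-1.13 and -1.03), and GDH1 rose by 0.79. None of 30 methionine and sulfate genes was called. Of 29 sterol and fatty acid genes 3 fell (10.3%), the desaturase ERG3 (-1.56 and -1.37), ERG7 (-0.82) and FAS1 (-0.79), of which ERG7 and FAS1 lay so near the threshold that other normalisations placed them below it, leaving 1 fall with global loess, with no curve and on external control spots. VHT1, the biotin transporter, was the only one of 6 biotin genes called, at -1.40 and -1.44.

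The step from 5 to 15 min was tested within the same fit, where the common reference cancels. By 15 min 113 genes (2.13% of those tested) had moved up and 144 (2.71%) down from their level at 5 min. The balance depended on scaling, with 82 higher and 355 lower on the scale of external control spots and 90 higher and 209 lower with no curve fitted within arrays. Of the 365 genes that had risen at 5 min 50 rose further, 23 fell and 292 were not called in this contrast. Of the 319 that had fallen 23 fell further, 20 rose and 276 were not called. Both contrasts use the 5 min arrays.

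Transient rises included several regulators. ZPR1, a zinc finger protein that helps to fold a translation elongation factor, measured 1.42 and 2.06 at 5 min and lay at -0.25 at 15 min, a fall of 1.99 ± 0.13 as computed from the fit. CIN5 went from 2.06 to 0.17, PHD1, a factor of filamentous growth, from 1.47 to -0.39, and MGA1, a protein with an Hsf1-like domain, from 1.87 to 0.40. The remaining time points of CIN5 and PHD1 ended below 0, at -0.55 and -0.57 at 60 min. Glycogen synthase GSY1 went from 3.50 to 1.94 and was back at 0.00 at 60 min, while its paralog GSY2 was not called between 5 and 15 min. The plasma membrane protein gene HSP30 dropped from 2.07 to 0.24 but lay at 1.27 again at 30 min.

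Of the 16 hexose transport and sensing genes 4 fell in this step and 1, HXT5, rose, against 2.71% and 2.13% of all genes. HXT2 went from 1.83 to 0.28, HXT4 from 0.96 to 0.15 and MTH1 from 1.65 to 0.49. The amino acid permease AGP1 went from 1.89 to 0.41 and the general permease GAP1 from 2.81 to 1.96. Within the chaperone list BTN2 (3.84 to 2.49), its paralog CUR1 (1.97 to 1.09) and the nucleotide exchange factor FES1 (2.17 to 0.89) fell, while HSC82 (1.20 to 2.31), SSA1 (1.39 to 2.47), HSP60 (1.43 to 2.41) and HSP10 (1.01 to 1.79) rose further, and SSA4 (5.36 to 5.51) and HSP104 (3.96 to 3.97) were not called. HXT4, GAP1, CUR1, FES1, HSP60 and HSP10 were picked from the called genes after their values were seen.

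The 10 largest further rises were those of genes with various roles. GND2, a phosphogluconate dehydrogenase, went from 1.12 to 3.34, the largest further rise at 2.21 ± 0.11. TSA2 went from 1.03 to 2.84, TKL2, a transketolase, from 1.76 to 3.22, and NQM1, a transaldolase, from 2.42 to 3.93. ARO10, a decarboxylase of aromatic amino acid breakdown, went from 1.39 to 3.38, the hexose transporter HXT5 from 1.63 to 3.25 and the aldehyde dehydrogenase ALD3 from 3.56 to 5.02. FMP16 (1.36 to 3.18), TFS1, an inhibitor of carboxypeptidase Y (3.10 to 4.92), and RTN2 (2.48 to 3.87) complete the 10 largest.

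**Figure D4:**
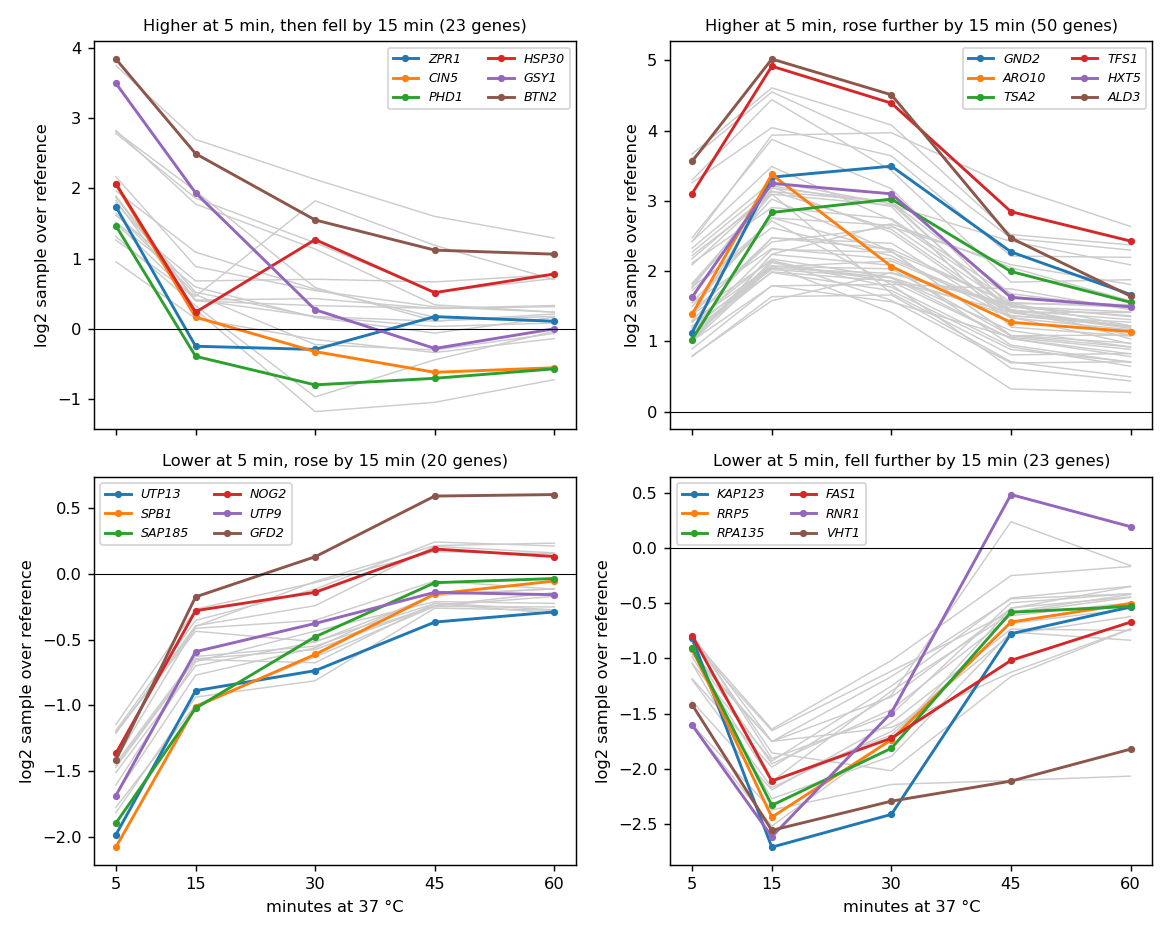
Log2 sample over reference (y axis) at 5, 15, 30, 45 and 60 min at 37 °C (x axis) for genes called at 5 min and again between 5 and 15 min, in 4 panels by direction, with each gene in grey and 6 examples per panel in colour. Genes of the first panel peak at 5 min, as GSY1 does at 3.50, except TIP1, which is highest at 30 min (1.82), and those of the second peak at 15 or 30 min, as ALD3 does at 5.02. UTP13 in the third panel goes from -1.99 to -0.89 between 5 and 15 min, and KAP123 in the fourth from -0.81 to -2.71.

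Ribosome assembly genes split between 5 and 15 min. Of the 122 genes of the 2 assembly lists 14 rose and 13 fell in this step, against 2.13% and 2.71% of all genes. Of the same 122 genes 84 were called lower at 15 min, when 9.34% of all genes were, against 98 at 5 min. UTP13 (-1.89 and -2.08 at 5 min) and SPB1 stood at -0.89 and -1.01 at 15 min. SAP185 came back from -1.90 to -1.02. In the other direction RRP5 measured -1.08 and -0.75 at 5 min and -2.53 and -2.35 at 15 min. The karyopherin KAP123, an importer of ribosomal proteins, measured -0.77 and -0.86 at 5 min and reached -2.71. The polymerase I subunits RPA135 and RPA190, the largest of that enzyme, went from -0.90 to -2.33 and from -0.80 to -2.11.

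The 5 longest assembly genes lay lower at 15 than at 5 min, and all but REA1 were already called lower at 5 min. REA1, an AAA ATPase of 60S assembly with a gene length of 14733 bases, measured -0.12 and -0.05 at 5 min and -2.06 and -1.98 at 15 min, a difference of -1.93 ± 0.06. UTP20 (7482 bases) went from -1.61 to -2.52, UTP10 (5310 bases) from -1.27 to -1.85, URB1 (5295 bases) from -1.37 to -2.09 and RRP5 (5190 bases) from -0.91 to -2.44. The differences of UTP10 (-0.57) and URB1 (-0.72) were under the fold threshold. The 11 assembly genes above 3000 bases had a median of -1.35 at 5 min and -1.85 at 15 min, and the 111 shorter ones -1.21 and -0.91. Of the 11 longer genes 9 lay below their 5 min value, while URB2 (3525 bases) and UTP22 (3714 bases) moved up by 0.66 and 0.51, under the fold threshold. This division was chosen after the values were seen and is given with no test, and the shorter genes also include 9 that fell from 5 to 15 min, such as NOP1 (-0.99 to -2.11) and NOP7 (-1.05 to -2.27).

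**Figure D5:**
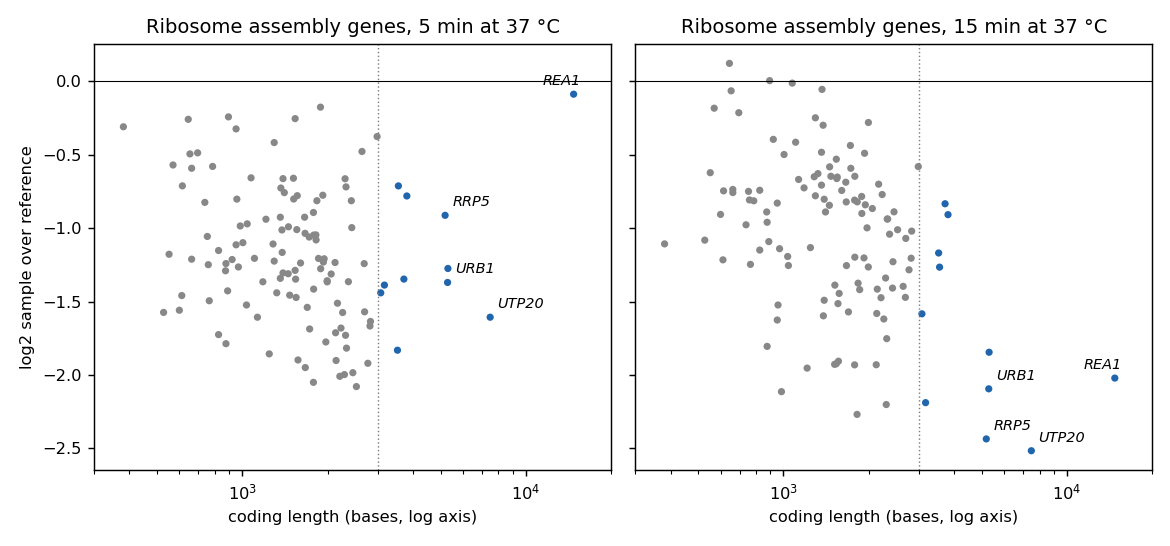
Log2 sample over reference (y axis) at 5 min (left) and 15 min (right) against gene length in bases (x axis, labelled coding length, log scale) for 122 ribosome assembly genes, with the 11 genes above 3000 bases in blue and a dotted line at 3000. REA1 lies at -0.09 at 5 min and at -2.02 at 15 min, and the 111 shorter genes have medians of -1.21 and -0.91.

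Members of other lists were called between 5 and 15 min, a step in which 2.13% of all genes rose and 2.71% fell. These shares depended on scaling, as given above. Ribosomal protein genes had a median of -0.21 at 5 min and -0.57 at 15 min, and 26 of 125 fell between these times and none rose. The 5 min median of this list depended on the normalisation, as given above. Of 6 biotin genes 5 fell in this step, and the median went from -0.39 to -2.09. Histone genes had a median of -0.20 at 5 min, -0.43 at 15 min and -1.32 at 30 min. Of the 4 genes specific to mating type alpha 2 fell in this step, MF(ALPHA)2 from -0.64 to -3.10 and SAG1 from -0.15 to -1.61.

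The median changes of the genes called at 5 min were smaller by the end of the hour. The 365 genes that rose had medians of 1.23, 1.29, 1.08, 0.60 and 0.56 at 5, 15, 30, 45 and 60 min, and the 319 that fell had medians of -1.08, -0.998, -0.74, -0.29 and -0.28. Compared directly with 60 min, 172 of the 365 were higher at 5 min and 2 were lower, and 190 of the 319 were lower at 5 min and none was higher. Over all genes 4.03% fell and 4.67% rose between 5 and 60 min. The 365 and 319 genes were picked on the same 5 min arrays that this contrast uses, which favours a return towards 0. The shares over all genes are therefore no like base for them. The 2 genes that were lower at 5 than at 60 min were CUP1-2, a metallothionein with a near-identical copy (0.91 and 1.78), and YDR210C-C (1.14 and 1.92), both named after their values were seen.

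The cells at 5 min also differed from cells grown at 37 °C. Relative to the culture at 37 °C from which cold shock was started, 5 min of heat shock had 309 genes higher (5.82%) and 345 lower (6.5%). Of the 365 genes that rose against the reference 253 were also higher than in the 37 °C culture and none was lower, and of the 319 that fell 244 were lower and none was higher. Both comparisons share the 5 min arrays. SSA4 lay 3.73 above the 37 °C culture, BTN2 3.94, RTC3 4.02 and GSY1 3.29 above it, whereas HSP12 lay 0.97 and HSC82 0.71 above it. SPB1 lay at -2.37 and RRP12 at -2.21 against this culture.

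Cooling gives a comparison with cells that were centrifuged and re-suspended in the same way. At 5 min of cold shock 156 genes (2.94%) had risen and 170 (3.2%) had fallen relative to the 37 °C culture. Of the genes that rose in heat 122 fell in cold, 33.4% of the former and 71.8% of the latter. Of the genes that fell in heat 110 rose in cold, 34.5% of the former and 70.5% of the latter. HSP104 measured 3.96 in heat and -3.80 in cold and HSP78 3.96 and -3.89. Of the general stress genes 24 of 34 fell in cold, and of the chaperones 20 of 29. RRP12 measured -2.30 in heat and 1.02 in cold, and 44 of 61 genes for 60S assembly rose in cold. Of the genes that rose in heat 1.1% rose in cold as well, so that most of them were not called in cold. Among these, heat genes that fell from 5 to 15 min included CIN5 (0.14), PHD1 (-0.18), MGA1 (-0.04), IRA2 (0.01) and MTH1 (0.08). Other heat genes that fell from 5 to 15 min did move, with GSY1 at -0.98, HSP30 at -1.14, EMI2 at -1.74, CUR1 at -0.86, CAR1 at -0.90 and HXT2 at 2.42 in cold. These examples were picked after their values were seen.

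In all, 9 genes moved the same way after both shifts. Of the genes that rose in heat 1.10% rose in cold, against 2.94% of all genes. Of those that fell in heat 1.57% fell in cold, against 3.2% of all genes. HXT2 measured 1.83 in heat and 2.42 in cold, ADE17, an enzyme of purine synthesis, 0.78 and 2.45, the carbonic anhydrase NCE103 2.31 and 1.43, and SIP5 1.76 and 0.82. RNR1 measured -1.60 in heat and -0.79 in cold, ERG3 -1.46 and -1.39, CYC1 -0.92 and -1.35, the drug exporter PDR5 -1.002 and -0.81, and YDR222W -1.04 and -0.79. These 9 are named because they were few, after their values were seen. Handling was shared by both shifts, and its part in these 9 changes was not tested.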

How the data were processed

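Scanner intensities of 22 dual-colour spotted oligonucleotide arrays were analysed, 2 per condition for 11 conditions. The authors deposited the mean intensity and background of every spot in each channel, with no background subtracted. The authors also deposited normalised log2 ratios per array, made by print-tip loess and a gene-specific dye correction, which were used as an alternative after the sign was turned on 3 of 22 arrays that ran against their dyes; neither 5 min array was among these. A deposited table of the authors' own comparisons, with fold changes and p-values made with limma 2.12.0 per the submitters' processing notes, was not used.

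Here, intensities were turned into log2 ratios (sample over reference) with limma 3.58.1 under R 4.3.3. A print-tip loess curve of span 0.4 was fitted in each of 48 print blocks, giving no weight to control spots and spots above 32768. Spots of a probe were averaged. Of 6388 gene probes 5326 carried 1 gene name, 1062 none and 0 several. The RefSeq gene table (assembly R64) updated 58 symbols, held 5309 of 5311 genes and gave gene lengths, which need not equal coding lengths. Where a gene had several probes (15 genes), its brightest one stood for it. All arrays entered 1 limma fit (lmFit, eBayes) with condition and dye as terms, followed by Benjamini-Hochberg adjustment over 5326 probes. Since the letters a and b mark the dye orientation, the dye term also serves as the replicate block. On the 5 min arrays 94.7% and 95.7% of gene spots exceeded their background by 2.6 of its SDs in both channels. With 2 arrays per condition the number of arrays limits the precision. No slide or scan batch was used.

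Genes were named by rule: the 15 largest rises and falls at 5 min with the same sign on both arrays, the 3 largest in each direction per list, the 10 largest rises and falls from 5 to 15 min among genes also called at 5 min, a fixed set of regulators and the strain markers. Other names are said to be chosen after their values were seen, or illustrate a list. Members, lists and tests were chosen with earlier results of these data known. Other normalisations, backgrounds, baselines, thresholds and left-out arrays were tried, and the steps were tested on simulated data.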

Additional observations from a re-analysis of the deposited data

Results flagged for a closer look

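The expression of 20 named genes differed between 5 and 15 min of heat shock in a direct test of the 2 time points. The log2 difference, 15 min minus 5 min, was 2.21 for GND2, 1.99 for ARO10, 1.82 for FMP16, 1.81 for TFS1, 1.81 for TSA2, 1.62 for HXT5, 1.51 for NQM1, 1.46 for ALD3, 1.45 for TKL2 and 1.40 for RTN2. It was -1.99 for ZPR1, -1.89 for KAP123, -1.89 for CIN5, -1.86 for PHD1, -1.83 for HSP30, -1.56 for GSY1, -1.55 for HXT2, -1.52 for RRP5, -1.48 for AGP1 and -1.47 for MGA1. KAP123 and RRP5 were already lower than the reference at 5 min, and the other 8 genes that fell in this step were higher. These genes were picked for the size of this difference among genes also called at 5 min. Genes not called at 5 min, such as REA1 (-1.93) and SDA1 (-1.54), were left out.

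Probes without a gene name in the array annotation also responded. Of 1062 such probes 101 passed the same thresholds at 5 min, 76 higher and 25 lower. They entered no count of genes.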

How the results depend on the processing

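The counts at 5 min, 365 higher and 319 lower, stayed within 1.5 times under every alternative normalisation, background, baseline and filter run, and the fold threshold moved them most. At 1.5-fold 553 genes were higher and 513 lower, and at 2-fold 194 were lower. Without array a or array b of 5 min, 358 to 385 genes were higher and 326 to 326 lower. For 15 against 5 min, a threshold of 2-fold gave 44 higher and 75 lower, 1.5-fold gave 199 and 242, and scaling on external control spots gave 355 lower. With single arrays left out these counts ranged from 103 to 116 higher and from 134 to 161 lower. Among genes called at 5 min, those that rose further numbered 29 on external control spots, 24 at 2-fold and 81 at 1.5-fold, and from 47 to 51 with an array left out. Those that were higher and fell numbered 15 and 41 at these folds (21 to 29 with an array left out), those that were lower and rose 6 and 63 (15 to 26), and those that fell further 3 and 68 (19 to 25). These last 4 counts and their alternatives were added after seeing the data.

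Without the replicate block, that is without the dye term, 365 genes were higher and 319 lower at 5 min, and 113 were higher and 143 lower at 15 than at 5 min, so that none of these 4 counts changed by more than 1. Of the named genes 2 changed sign under another baseline, GDH1 to -0.46 against cells 60 min after cooling and SED1 to -0.37 against the 37 °C culture; the cause was not tested. The control scale rests on 4 probes and is extrapolated for genes brighter than a log2 intensity of 10.8. A batch term was not run because the files give no slide or scan, and the planned share of promoters with a motif was not run because no promoter sequences were used here.

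Of 135 named values at 5 min, 20 fell short of the thresholds against the 37 °C culture, 18 at 2-fold, 9 with no within-array curve, 7 with global loess, 7 on external control spots and none without the dye term.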

Other observations

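Beside AGP1, GAP1 and ARO10, named above, 4 more genes with roles in nitrogen use are given here. These 4 were called both at 5 min and between 5 and 15 min and were in none of the lists. They were picked for these calls after their values were seen, and no test was made of them as a group. ARO9, an aromatic aminotransferase, measured 1.83 at 5 min and 3.10 at 15 min. CAR2, the ornithine aminotransferase of arginine breakdown, measured 1.28 and 2.07. CAR1, the arginase of the same pathway, measured 1.32 and 0.33, and LST8, a subunit of both TOR complexes, 1.51 and 0.41. ARO9 and CAR2 were called higher and CAR1 and LST8 lower at 15 than at 5 min.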
